A study of Arabidopsis thaliana with 36 samples.

Results

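The genes described here are all rows of the deposited table whose code starts with ATCG, for the chloroplast genome, or with ATMG, for the mitochondrial genome. They were 74 chloroplast and 26 mitochondrial genes, 100 of 16283 genes in all, and the code alone chose them, not their values. Wild-type Arabidopsis thaliana seedlings (Columbia-0, 7 d old, grown at 21 °C with 16 h of light a day) were held in water for 1 h or in 30% polyethylene glycol (PEG), an osmotic agent, with 1 mM salicylhydroxamic acid (SHAM) for 1, 2 or 3 h. SHAM inhibits lipoxygenases and the alternative oxidase, a mitochondrial enzyme that is itself encoded in the nucleus. Roots and shoots were separated after treatment, and each biological replicate pooled 30 to 50 seedlings. The 12 groups of 3 libraries were, in each tissue, 3 treated groups and 3 sets of water libraries, which are named here by the prefixes of their titles, S0, PS0 and PH0. All 3 water sets carry the same label of 1 h in water, so what set them apart is not given in the labels. The design text names an earlier time for water than this label does, so the time in water is not settled. A SHAM concentration of 0.1 mM also occurs in the treatment protocol, beside a water potential of -2.0 MPa. The design text also names 30% PEG with 5 mM histidine. PEG with histidine, PEG alone, SHAM alone and water of 2 h or 3 h were not analysed here, so the parts of PEG, SHAM and time cannot be told apart.

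Plant organelles keep small genomes of their own. The chloroplast genome encodes core subunits of the photosystems, of the cytochrome b6f complex, of the ATP synthase and of an NADH dehydrogenase-like complex, the large subunit of Rubisco, ribosomal proteins, a bacterial-type RNA polymerase, and ribosomal and transfer RNAs. The mitochondrial genome encodes subunits of the respiratory complexes and of the ATP synthase, factors of cytochrome c maturation, ribosomal proteins, and ribosomal and transfer RNAs. In both organelles a poly(A) tail is a mark for degradation and not, as in the cytosol, for stability and translation. MARS-seq, the method used here, primes on poly(A) and reads the 3′ ends of transcripts, so the values below are levels of polyadenylated or A-rich organelle RNA and not of all organelle RNA.

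The reference annotation used here does not pair these codes with gene names. It mentions 9 of the 100 codes, each time as the best match or the source of a nuclear gene, and 91 codes carry no name here. The descriptions found in this way are ribosomal protein L20 for ATCG00660, ribosomal protein S11 for ATCG00750, ribosomal protein L2 for ATCG01310, the plastid-encoded ClpP protease subunit for ATCG00670, a CemA-like proton extrusion protein for ATCG00530, a photosystem II reaction center protein G for ATCG00430 and a cytochrome c biogenesis protein for ATMG00180. These descriptions are the annotation's wording in notes on nuclear genes and were not checked for the organelle genes themselves. The other members are given by code, without a role. The annotation also names 53 mitochondrial codes as the source or best match of 55 nuclear genes, and 2 of these 53 were members of the table. Of these 55 nuclear genes, 4 were in the table, none with a normalized signal over 8.5 in any library. Reads of the mitochondrial genes and of near-identical nuclear copies may have been split by the counting, so levels of mitochondrial members that have such copies are uncertain.

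The libraries held between 161684 and 7181461 recovered reads (161.7 to 7181.5 kiloreads), and 5 held fewer than 600 kiloreads. The tissue labels were checked with 8 markers each. Summed normalized signal of the shoot markers, which are nuclear photosynthesis genes, was 61699.5 to 194146.5 in shoots and 259.1 to 1595.2 in roots, and that of the root markers was 1166.3 to 3690.7 in roots and 34.2 to 118.6 in shoots. Some libraries stood apart in their organelle reads. The root library of replicate 2 at 1 h had 429.8 kiloreads, and its chloroplast share of 0.00698% (Wilson 95% interval 0.00489 to 0.00996%) rested on 30 reads. It also had the most shoot marker signal among root libraries, 1595.2 against at most 751.4 in the others, and the part of this in its values was not tested. The root library of replicate 3 at 3 h had a chloroplast share of 0.0048% (0.00381 to 0.00606%) from 71 reads, at 1478.7 kiloreads in all. The shoot library of replicate 2 at 2 h had 340.2 kiloreads and a chloroplast share of 0.158% (0.146 to 0.172%). The shoot library of PH0 replicate 1 had 161.7 kiloreads and a chloroplast share of 0.244% (0.221 to 0.269%). These intervals cover counting error only, and values without these libraries are given where they move a result.

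Chloroplast transcripts were a small part of the poly(A)-primed RNA in shoots and a trace in roots. Over the 9 water libraries of each tissue they were 0.603% ± 0.175 (SD, n = 9) of all reads in shoots and 0.0556% ± 0.0129 (SD, n = 9) in roots. No root water library, at 0.0389 to 0.0742%, reached the lowest shoot water library at 0.244%. The root mean was 0.0922 of the shoot mean, and the difference of -0.547 percentage points had p = 4.11e-05 in a two-sided exact permutation test, the smallest that 9 against 9 libraries can give, or 2.88e-04 after Benjamini-Hochberg adjustment over the 14 tests of shares. In these bulk samples, fewer green cells and less chloroplast RNA per cell cannot be told apart.

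Mitochondrial transcripts showed the opposite order. They were 6.13% ± 1.21 (SD, n = 9) of the reads of roots in water and 0.649% ± 0.145 (SD, n = 9) in shoots, a 9.44-fold higher mean in roots. The root libraries ranged from 4.27 to 8.17% and the shoot libraries from 0.297 to 0.779%, without overlap, and the difference of 5.48 percentage points had an exact permutation p = 4.11e-05 and an adjusted p of 2.88e-04. This test, too, left pairing and set aside. A single code, ATMG00020, held most of the mitochondrial signal. It carries no name in the reference used here, so whether it is a messenger or a ribosomal RNA was not determined. The share is thus mainly that of a single code and is no measure of mitochondrial gene activity at large. It took 82.2 to 94.2% of the mitochondrial reads in each root library and 92.9 to 95.5% in each shoot library. Without it, the mitochondrial share was 0.490% ± 0.121 (SD, n = 9) in root water and 0.0382% ± 0.00977 (SD, n = 9) in shoot water libraries, still without overlap (0.330 to 0.705% against 0.0179 to 0.0539%).

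**Figure D1:**
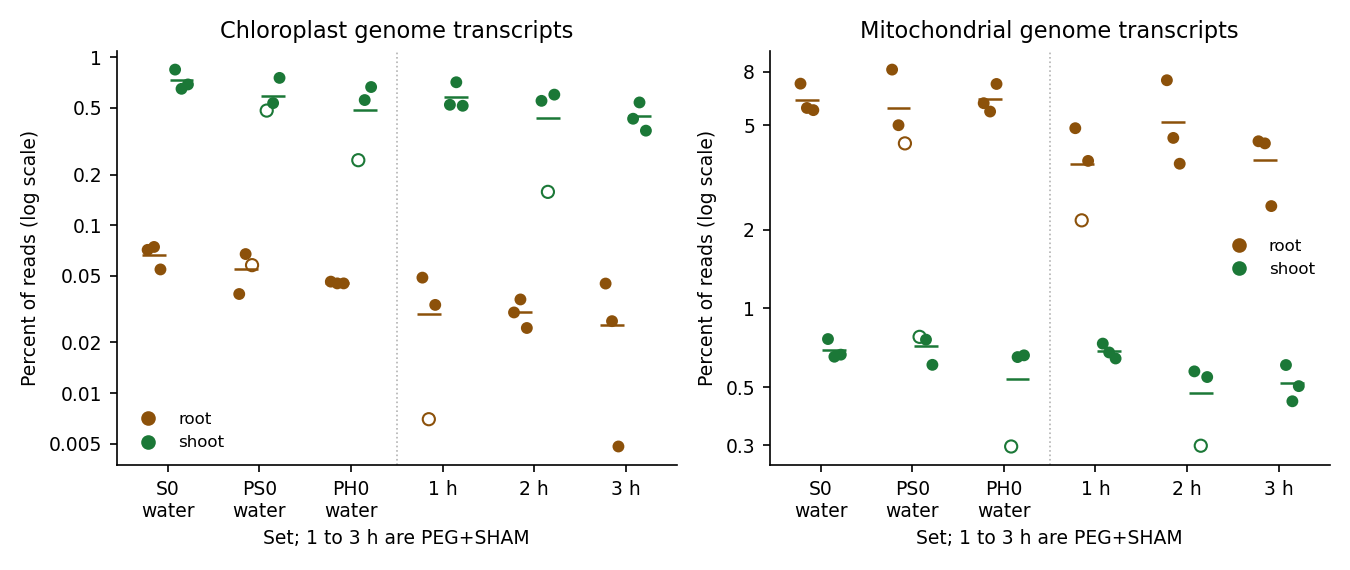
Percent of recovered reads from the chloroplast genome (left) and the mitochondrial genome (right) in each library, on log axes. Points are libraries (open points have fewer than 600 kiloreads), bars are group means, brown is root and green is shoot; the 9 root water libraries lie at 0.0389 to 0.0742% for the chloroplast and at 4.27 to 8.17% for the mitochondrion.

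Signal was spread over many chloroplast genes and concentrated in few mitochondrial ones. These are 3′ end counts per gene, not divided by gene length, so they rank the codes by captured ends only. In shoots the 10 most abundant chloroplast members held 78.2% of the chloroplast signal, led by ATCG00650 with a mean of 1521.9 (16.8%) and ATCG00740 with 1262.2 (13.9%). In roots the leading 10 held 80.1%, led by ATCG00740 with a mean of 79.4 (15.4%). The root and shoot lists of 10 had 7 codes in common. Of the 74 chloroplast members, 24 were above 0 in all 18 shoot libraries and 12 in all 18 root libraries, and 4 were at 0 in every root library. Among the mitochondrial members, ATMG00020 had a mean of 56888.3 in roots and 9510.2 in shoots, and ATMG01390 had 5333.9 and 315.0. These 2 codes, neither of which is named in the reference used here, together held 98.7% of the mitochondrial signal in roots and 97.5% in shoots. The third, ATMG00660, had 332.0 in roots and 117.0 in shoots. Of the 26 mitochondrial members, 13 were above 0 in all root libraries and 5 in all shoot libraries.

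Differences between groups were tested gene by gene with limma on log2 of the normalized signal plus 1, over all genes with a signal of at least 5 in 3 or more libraries, and a Benjamini-Hochberg adjusted p under 0.05 over all tested genes was a call. In roots 18 of the 74 chloroplast and 20 of the 26 mitochondrial members passed this filter, and in shoots 63 and 14 did. The filter was passed in neither tissue by 11 chloroplast and 6 mitochondrial members. Members left out had low levels, with mean signals of at most 3.21 in roots and 8.42 in shoots for the chloroplast.

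In the comparison of roots with shoots in water, 60 of 63 tested chloroplast members were lower in roots and none was higher. Among all 13218 genes tested, 22.8% were called lower in roots and 46.6% higher, 69.3% in all. Of the 63 members, 18 passed the filter in roots as well and the others through the shoots alone, so the count and the median below describe the members and are no support for a difference. The 18 that passed in both tissues were all called lower in roots, with a median log2 difference of -3.79. Over all 63 the median log2 difference, root minus shoot, was -2.82, against 0.58 over all genes. The largest difference was that of ATCG00330. Its signal in shoots was 329.2, 304.2 and 450.5 in S0, 296.2, 307.7 and 1189.8 in PS0 and 133.2, 1067.8 and 654.3 in PH0. In roots in water it ranged from 2.5 to 13.3, with a median of 8.1. Its log2 difference was -5.65 ± 0.53 (SE, limma adjusted p = 4.39e-11), with no overlap between the tissues. The next, ATCG00720, had 0 to 411.1 in shoot water libraries, with a median of 110.9, and 0 to 3.1 in root ones. It passed the filter through the shoots alone, so its values are given without a test. Its range in shoots reached 0 in the PH0 library with 161.7 kiloreads. Of the members with a name, ATCG00750, the small-subunit ribosomal protein S11 that forms part of the chloroplast ribosome, had a mean of 38.6 ± 13.7 (SD, n = 9) in shoots and 3.54 ± 2.31 (SD, n = 9) in roots. ATCG00660, the large-subunit ribosomal protein L20, with 5.9 ± 6.24 (SD, n = 9) and 2.54 ± 2.47 (SD, n = 9), and ATCG00530, the CemA-like protein, with 7.49 ± 14.3 and 0.744 ± 1.01 (SD, n = 9 each), were among the 3 members that missed the threshold. The third was ATCG00360. All 3 passed the filter through the shoots alone, so no p-value is given for them.

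Of the 14 mitochondrial members that passed the filter in both tissues, 10 were higher in roots and none was lower, with a median log2 difference of 1.54. A further 6 passed through the roots alone; with them 15 of 20 were called higher, at the same median of 1.54, which describes the members and is no support for a difference. Among all genes 46.6% were called higher. ATMG01390 differed most. In roots in water it stood at 4433.3, 4986.2 and 3282.6 in S0, at 7237, 4619.5 and 9286.9 in PS0 and at 4121.5, 4224.2 and 4825.5 in PH0. In shoots in water it ranged from 199.8 to 618.2, with a median of 423.0. The log2 difference was 3.71 ± 0.20 (SE, limma adjusted p = 6.69e-17). ATMG00020 ranged from 49575.3 to 87733.1 in root and from 5018.1 to 14792.3 in shoot water libraries, with a log2 difference of 2.63 ± 0.21 (limma adjusted p = 1.70e-12). In both of these genes the tissues did not overlap. ATMG00180, described as a cytochrome c biogenesis protein, of the group that attaches heme to cytochrome c, was far lower, with 5.81 ± 2.08 (SD, n = 9) in roots and 2.44 ± 1.89 (SD, n = 9) in shoots. It passed the filter through the roots alone, so its values are given without a test. The lowest difference was -0.16 ± 0.34, for ATMG00040 (limma adjusted p = 0.692).

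**Figure D2:**
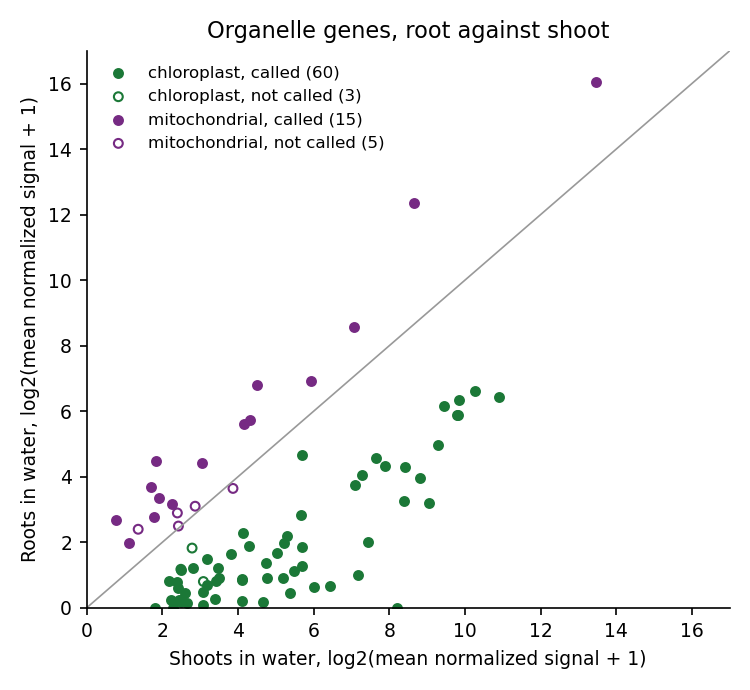
Mean normalized signal of the tested chloroplast (green) and mitochondrial (purple) genes in the 9 water libraries of each tissue, as log2(mean + 1), with shoots on the horizontal and roots on the vertical axis. Filled points were called between tissues; the line marks equal levels, with all 63 chloroplast members below it and the 15 called mitochondrial members above it.

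Nuclear genes whose products work with organelle-encoded ones were read beside the members, from lists chosen with earlier results of these data known. The 11 nuclear partners of plastid-encoded photosynthesis subunits, such as PSAD1 of photosystem I and RBCS1A, a small subunit of Rubisco, were all lower in roots, with a median log2 difference of -7.41. The 18 chloroplast members that passed the filter in both tissues had -3.79, and all tested chloroplast members had -2.82. The 8 shoot markers are all among these 11 genes, so this list is no independent check of the tissues. The proteins of the plastid-encoded polymerase complex, which transcribe chloroplast genes together with the core enzyme, were lower in roots in 9 of 11 tested, with a median of -2.32. The 4 tested members of the list of polymerases and sigma factors were all sigma factors, subunits that guide the plastid polymerase to promoters. All 4 were lower in roots, with a median of -3.99. Among 4 tested genes of organelle RNA processing, polyadenylation and decay, 3 were lower and 1 was higher in roots. The 12 nuclear partners of mitochondrial respiratory subunits, such as COX6B of cytochrome c oxidase, were higher in roots in 10 of 12, with a median of 1.36, beside the 1.54 of the mitochondrial members. Among all 13218 genes tested, 22.8% were called lower in roots and 46.6% higher. All 11 photosynthesis and all 12 respiratory partners passed the filter in both tissues. Only 7 polymerase complex genes, 3 sigma factors and 2 genes of RNA processing did so. The rest of these lists entered through a single tissue, so their counts and medians describe the genes and are no support for a difference. Whether these medians differ from those of the members was not tested.

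In roots, no organelle gene passed the threshold under PEG+SHAM before 3 h. All 3 times share the PS0 water set as control. At 1 h none of the 18 chloroplast and 20 mitochondrial members was called (4 and 4 at an unadjusted p under 0.05), where 1.67% of all 11950 tested genes were (0.837% higher and 0.828% lower), and at 2 h none (5 and 2 at an unadjusted p under 0.05), where 3.04% were (1.78% higher and 1.26% lower). At these times edgeR and DESeq2 called no chloroplast member, and among the mitochondrial members edgeR called 0 and 1 and DESeq2 1 and 1. At 3 h 1 chloroplast and 1 mitochondrial member were lower and none was higher, while 3.07% of all genes were lower and 3.49% higher (6.56% in all). Between 3 h and 1 h no member was called (0 chloroplast and 3 mitochondrial at an unadjusted p under 0.05, none in edgeR or DESeq2), where 1.27% of all genes were (1% higher and 0.268% lower). The median log2 change of the chloroplast members was -1.06, -0.88 and -1.20 at 1, 2 and 3 h, against -0.12, -0.10 and -0.16 over all genes. These medians depended on the libraries with low chloroplast shares: at 1 h the median was -0.40 without replicate 2, and at 3 h it was -0.81 without replicate 3. They stayed below 0 under TMM scaling, at -1.01, -0.78 and -0.97, while that scaling moved the median of all genes by 0.14, 0.17 and 0.23. The mitochondrial members had medians of -0.58, -0.26 and -0.32, and with S0 and PH0 as control these were -0.25, 0.11 and 0.08, so their sign at 2 h and 3 h depends on the water set. The chloroplast share of root reads was 0.0546% ± 0.0144 (SD, n = 3) in PS0 and 0.0297% ± 0.0211, 0.0302% ± 0.00587 and 0.0255% ± 0.0201 (SD, n = 3 each) at 1, 2 and 3 h. None of these differences passed an exact permutation test (p = 0.2, 0.1 and 0.2), and 3 against 3 libraries cannot give less than 0.1. The difference from PS0 went from -0.0249 to -0.0135 percentage points at 1 h without replicate 2, and from -0.0292 to -0.0188 at 3 h without replicate 3.

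The chloroplast member called in roots at 3 h was ATCG00300. Its signal was 35.4, 22.1 and 43.5 in PS0, and 7, 8.4 and 2.9 at 3 h. It was 41.5, 42.7 and 28.6 in S0 and 21.9, 16 and 19.6 in PH0, so that all 9 water libraries lay above the 3 libraries of 3 h. The log2 change was -2.33 ± 0.55 (SE, limma adjusted p = 0.0152). Leaving out PS0 replicate 3 (log2 change -2.13, limma adjusted p = 0.0662) or replicate 3 at 3 h (-1.95, adjusted p = 0.081) ended the call, and the other 15 alternatives kept it.

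The mitochondrial member called in roots at 3 h was ATMG01370. Its signal in water was 35.9, 58.6 and 45.2 in S0, 89.1, 53.1 and 55.9 in PS0 and 39.8, 39.9 and 50.8 in PH0. Under PEG+SHAM it was 18.8, 0 and 8.5 at 1 h, 15.1, 7.7 and 6.6 at 2 h, with 10.7, 11.7 and 0 at 3 h. Every treated root library was thus below every root library in water, at each of the 3 times. Against PS0 the log2 change was -3.51 ± 0.91, -2.68 ± 0.91 and -3.62 ± 0.91 at 1, 2 and 3 h, with limma adjusted p-values of 0.058, 0.146 and 0.0213. The call at 3 h was lost without any PS0 library (log2 changes of -3.39 to -3.76, limma adjusted p 0.0536 to 0.0613) and without replicate 3 at 3 h (log2 change -2.42, adjusted p = 0.11). With S0 and PH0 as controls instead, the changes were -2.99 ± 0.79, -2.15 ± 0.79 and -3.10 ± 0.79 (limma adjusted p = 0.0133, 0.0748 and 0.00857). In shoots the same gene had 18.4 as the median of the water libraries and 6.9 as the median of the treated ones, the ranges overlapped (0 to 34 and 2.2 to 13.6), and no comparison with PS0 passed (limma adjusted p = 0.0987 at 3 h).

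Neither of the 2 most abundant mitochondrial codes was called in roots. ATMG00020 was 87733.1, 49575.3 and 58156 in PS0, and 52602.8, 32709.6 and 34657.2 at 1 h, 80106.7, 59743.8 and 31418.9 at 2 h, with 43590.8, 50297.3 and 28716.4 at 3 h. Its changes against PS0 did not pass (log2 -0.69 ± 0.59, -0.25 ± 0.59 and -0.67 ± 0.59, limma adjusted p 0.571 to 0.890). ATMG01390 had means of 7047.8 ± 2339.4 in PS0 and of 4825.0 ± 1677.2, 6008.0 ± 2625.6 and 5498.3 ± 118.7 (SD, n = 3 each) at 1, 2 and 3 h (limma adjusted p = 0.511, 0.783 and 0.726). The mitochondrial share over all 9 treated root libraries was 4.14% ± 1.54 (SD, n = 9) against 6.13% ± 1.21 in water, and without ATMG00020 it was 0.481% ± 0.126 against 0.490% ± 0.121. Against PS0 alone, 5.81% ± 2.07 (SD, n = 3), the shares of 3.57, 5.16 and 3.69% did not pass an exact permutation test (p = 0.2, 0.6 and 0.3). Without PS0 replicate 1 the difference went from -2.25 to -1.07 percentage points at 1 h and from -2.12 to -0.945 at 3 h.

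**Figure D3:**
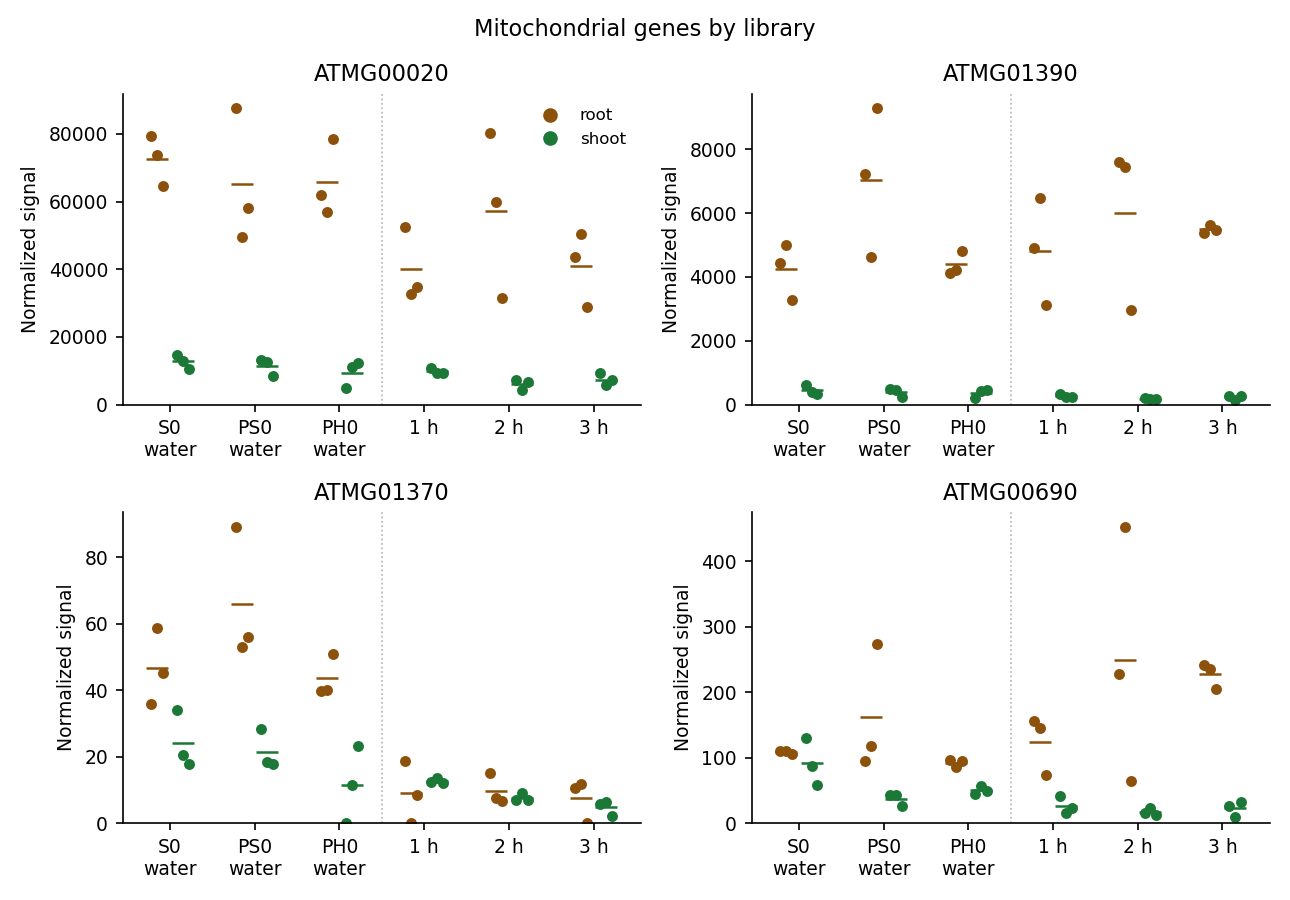
Normalized signal of 4 mitochondrial genes in every root (brown) and shoot (green) library by set, with group means as bars. ATMG00020 and ATMG01390 are the most abundant members, ATMG01370 lies between 0 and 18.8 in the treated roots against 35.9 to 89.1 in water, and ATMG00690 has its highest root value of 453.0 at 2 h.

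In shoots, 8 chloroplast members fell at 2 h and 2 at 3 h. None of 63 was called at 1 h (4 at an unadjusted p under 0.05, 0 in edgeR and in DESeq2), where 0.87% of all 10459 genes were (0.65% higher and 0.22% lower). At 2 h 8 were lower and 1 was higher, where 5.06% of all genes were lower and 4.36% higher (9.42% in all). At 3 h 2 were lower and none was higher, where 7.37% of all genes were lower and 6.66% higher (14% in all), and edgeR called 5 and DESeq2 6. The median log2 change was -0.18, -0.83 and -0.48 at 1, 2 and 3 h, against -0.02, -0.09 and -0.08 over all genes. Single libraries decided the count at 2 h, which was 3 without PS0 replicate 2 and 3 without replicate 2 at 2 h, the library of 340.2 kiloreads. The count at 3 h was 1 without PS0 replicate 1 or 2 or without replicate 1 at 3 h, and 5 without PS0 replicate 3. Without all 5 libraries of fewer than 600 kiloreads, an alternative chosen after seeing the data, 10 were called at 2 h and 8 at 3 h. Every one of them was lower, and the medians were -0.34 and -0.33. The share of all genes called in this alternative is not given here, so these counts cannot be set against it.

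Of the members that fell at 2 h, ATCG00280 and ATCG00490 kept the call under all 17 alternatives. ATCG00280 had a signal of 391.4, 237.3 and 215.7 in PS0, of 214, 204.6 and 197 at 1 h, of 99.7, 134.7 and 101.7 at 2 h, and then of 160.4, 82.7 and 87.3 at 3 h. The libraries of 2 h and of 3 h were all below those of PS0, and also below the 170.7 to 530.1 of all 9 water libraries. The log2 change was -1.28 ± 0.26 at 2 h (SE, limma adjusted p = 0.00346) and -1.36 ± 0.26 at 3 h (adjusted p = 0.00132). The same gene was the single member called between 3 h and 1 h in shoots (log2 change -0.96 ± 0.26, limma adjusted p = 0.0343), where 6.24% of all genes were called (2.98% higher and 3.26% lower). That call was lost without any of the 1 h libraries or without replicate 2 or 3 at 3 h, with limma adjusted p from 0.0859 to 0.172 and log2 changes from -0.79 to -0.99. ATCG00490 had 253.9, 332.2 and 279.5 in PS0 and 110.6, 58.4 and 107.4 at 2 h, again without overlap. Its log2 change was -1.68 ± 0.37 (limma adjusted p = 0.00569), while PH0 replicate 1, at 88.8, was the 1 water library inside the range of 2 h. The other member called at 3 h was ATCG01130, with 49.4, 33.7 and 15.7 in PS0 and 5.9, 9 and 12 at 3 h, and a log2 change of -1.68 ± 0.43 (limma adjusted p = 0.0128). Its call ended without PS0 replicate 1 or 2 or replicate 1 at 3 h (-1.32, -1.59 and -1.43, adjusted p = 0.0846, 0.0522 and 0.0681).

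The member that was higher at 2 h, ATCG00770, has a low level and is named after its values were seen. It had 0, 0 and 0.6 in PS0 and 3.5, 9 and 3.4 at 2 h, with a log2 change of 2.32 ± 0.72 (limma adjusted p = 0.0479). In the other water sets it reached 9.3, and the change against S0 and PH0 was 0.24, with an adjusted p of 0.806. The call was lost under 12 of 16 alternatives, among them leaving out PS0 replicate 1 or 2 or any library of 2 h, at changes of 1.93 to 2.52. ATCG01310, described as the large-subunit ribosomal protein L2, had 10.6, 4.6 and 2.8 in PS0 and 1.2, 0 and 0 at 2 h. Its log2 change was -2.27 ± 0.69 (limma adjusted p = 0.0444), its signal was 7.4, 3.9 and 4.4 again at 3 h, and the call was lost under 10 of 16 alternatives. The other ribosomal protein codes did not pass at 2 h. ATCG00750 (S11) had 41.3 ± 11.6 in PS0 and 27 ± 15.5 at 2 h, and ATCG00660 (L20) had 1.23 ± 1.12 and 3.07 ± 2.87 (SD, n = 3 each).

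Of the 10 most abundant chloroplast members of shoots, 4 were lower at 2 h, ATCG00490 among them, and none was called at 1 h or 3 h. The most abundant, ATCG00650, had 2108.5, 2105.1 and 1551.1 in PS0, 878.3, 305.3 and 975.4 at 2 h and 1197.1, 973.3 and 863.1 at 3 h. Its libraries of 2 h were all below those of PS0, while PH0 replicate 1, at 444.1, lay within their range. The log2 change was -1.57 ± 0.43 at 2 h and -0.92 ± 0.43 at 3 h (limma adjusted p = 0.0256 and 0.174), and the call at 2 h was lost under 4 of 17 alternatives, among them leaving out replicate 2 at 2 h (-1.04, adjusted p = 0.149) or PS0 replicate 1 or 2 (-1.50 in each case, adjusted p = 0.0931 and 0.0929). ATCG00640 averaged 656.1 ± 191.4 in PS0 and 166.4 ± 80.7 at 2 h (SD, n = 3 each), without overlap between the libraries, with a log2 change of -2.07 ± 0.48 (limma adjusted p = 0.00796). Its call was lost without PS0 replicate 2 (-1.84, adjusted p = 0.0508) and without replicate 2 at 2 h (-1.62, adjusted p = 0.0598). ATCG00300 had 602.9, 416.4 and 489.0 in PS0 and 267.4, 76.3 and 221.6 at 2 h, also without overlap. Its log2 change of -1.58 ± 0.49 was close to the threshold (limma adjusted p = 0.0495), and the call was lost under 11 of 17 alternatives, at changes from -1.03, without replicate 2 at 2 h, to -1.79.

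ATCG00740 and ATCG00330 were not called at 2 h. ATCG00740 had 874.4, 1099.3 and 2016.6 in PS0 and 1466.1, 399.6 and 1665.3 at 2 h, with overlapping ranges and a log2 change of -0.33 ± 0.44 (limma adjusted p = 0.684). ATCG00330 had 296.2, 307.7 and 1189.8 in PS0 and 937, 44.9 and 675 at 2 h, a change of -0.64 ± 0.86 (adjusted p = 0.689). In both genes the lowest of the 3 treated values came from the library of 340.2 kiloreads. The chloroplast share of shoot reads was 0.59% ± 0.145 in PS0 and 0.583% ± 0.111, 0.437% ± 0.242 and 0.445% ± 0.0872 (SD, n = 3 each) at 1, 2 and 3 h, and no difference passed an exact permutation test (p = 0.8, 0.6 and 0.3). Single libraries moved these differences from PS0. At 2 h the difference was -0.154 percentage points, but -0.0147 without replicate 2 at 2 h, -0.0716 without PS0 replicate 3 and -0.236 without replicate 3 at 2 h. At 3 h it was -0.145, and -0.063 without PS0 replicate 3.

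**Figure D4:**
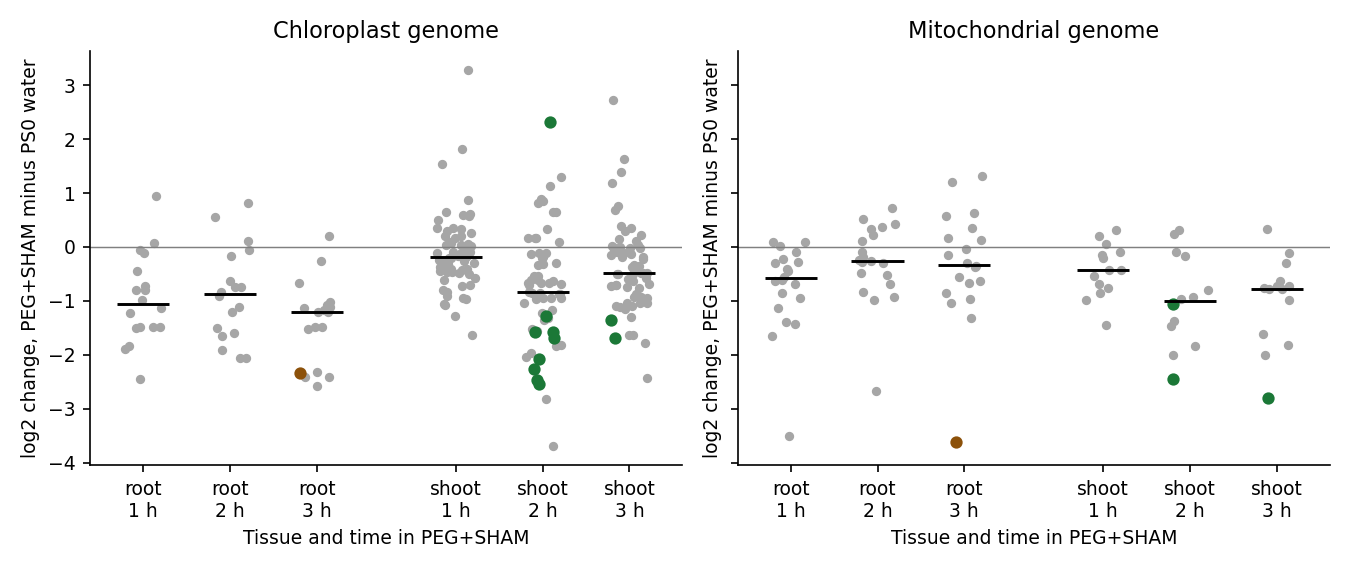
Change of every tested chloroplast (left) and mitochondrial (right) gene under PEG+SHAM against PS0 water, as log2 of normalized signal plus 1, by tissue and time. Coloured points were called (brown in root, green in shoot), grey points were not, and black bars are medians, which in shoots are -0.18, -0.83 and -0.48 for the chloroplast.

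Among the nuclear partners of the photosynthesis subunits, 5 of 11 fell in shoots at each of 2 h and 3 h, where 5.06 and 7.37% of all genes did. The list had medians of -0.74 and -0.78, and none of its genes was higher. PSBP1, a protein of the oxygen-evolving complex of photosystem II, had log2 changes of -0.98 ± 0.20 at 2 h and -1.09 ± 0.20 at 3 h (limma adjusted p = 0.00353 and 9.36e-04). PSAE1, a subunit of photosystem I, had -1.10 ± 0.28 and -1.33 ± 0.28 (adjusted p = 0.0173 and 0.00318), and RBCS1A had -0.16 ± 0.30 and 0.01 ± 0.30 (adjusted p = 0.788 and 0.988). In the polymerase complex, PAP6, a fructokinase-like protein, was lower at 3 h (-0.95 ± 0.29, limma adjusted p = 0.0354), and the other 9 tested proteins of that list were not called at any time. No tested sigma factor, no tested gene of RNA processing and no respiratory partner was called in shoots or roots against PS0. None of the RNA polymerases listed beside the sigma factors passed the filter.

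The mitochondrial members that limma called in shoots were all lower. None of 14 was called at 1 h (0 at an unadjusted p under 0.05, and 0 by edgeR or DESeq2), 2 were lower at 2 h and 1 was lower at 3 h, where 5.06 and 7.37% of all genes were lower (9.42 and 14% called in all). At 2 h edgeR called none and DESeq2 3, and at 3 h both called 3. The median log2 change was -0.42, -1.01 and -0.77. ATMG00660, the third most abundant, had 137.5, 147 and 142.8 in PS0 and 70.9, 49.4 and 89.1 at 2 h, without overlap, and 92.1, 69.1 and 98.2 at 3 h. Its log2 change at 2 h was -1.06 ± 0.32 (limma adjusted p = 0.0407), close to the threshold. The call was lost under 11 of 17 alternatives, at log2 changes of -0.83 to -1.09, among them leaving out any PS0 library or replicate 1 or 2 at 2 h. The others called, ATMG00040 at 2 h and ATMG00060 at 3 h, had PS0 values of 31.7, 9.2 and 6.2 and of 17.6, 7.7 and 3.4. ATMG00040 was at 3.5, 0 and 2.3 at 2 h (log2 change -2.45 ± 0.66, limma adjusted p = 0.023), and was not called without PS0 replicate 1 or without replicate 2 at 2 h (-1.80 in each case, adjusted p = 0.139 and 0.113), nor without the libraries under 600 kiloreads (-1.15, adjusted p = 0.229), nor by edgeR (adjusted p = 0.0684) or DESeq2 (0.0585). ATMG00060 was at 0, 0 and 1.1 at 3 h (-2.80 ± 0.80, adjusted p = 0.0228), and leaving out PS0 replicate 1 or 2, or replicate 1 or 2 at 3 h, ended its call (changes of -2.27 to -2.82, adjusted p from 0.0623 to 0.118). With S0 and PH0 as control its change was -1.76 (adjusted p = 0.0622). The mitochondrial share of shoot reads was 0.716% ± 0.0932 in PS0 and 0.686% ± 0.045, 0.474% ± 0.152 and 0.518% ± 0.0836 (SD, n = 3 each) at 1, 2 and 3 h. At 2 h and at 3 h every treated library was below every PS0 library, and the exact permutation p was 0.1 for each, the smallest possible, with an adjusted p of 0.28. The difference at 2 h went from -0.242 to -0.155 percentage points without replicate 2 at 2 h.

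No member was called in the test of the difference between the root and the shoot response. None of the 18 chloroplast and 14 mitochondrial members tested in both tissues was called at 1, 2 or 3 h by limma, edgeR or DESeq2, where limma called 0.348, 2.63 and 3.83% of all 9191 genes (higher in 0.218, 1.51 and 2.19%, lower in 0.131, 1.12 and 1.64%). At an unadjusted p under 0.05 there were 0, 0 and 1 chloroplast and 2, 2 and 2 mitochondrial members. With other water sets as control, some mitochondrial members were called. With S0 and PH0 there were 0, 3 and 1 at 1, 2 and 3 h, where 10.9, 11.6 and 12.5% of all genes were called, and with all 3 water sets 0, 2 and 1, where 5.34, 8.67 and 10.1% were. ATMG00690 was one of them, and it was chosen for description after its values were seen. It had 95.1, 118.6 and 273.2 in PS0 roots and 86.3 to 110.9 in the 6 other root water libraries. In treated roots it had 155.4, 145 and 73 at 1 h, 227.7, 453 and 64.5 at 2 h, with 242.1, 235.4 and 204.2 at 3 h. In shoots it was 42.3, 42.9 and 25.8 in PS0 and 44.4 to 129.8 in the 6 other water libraries, and 16.1, 22.4 and 12.6 at 2 h and 26.7, 9.7 and 32.7 at 3 h. The difference between the root and the shoot response at 3 h was 1.42 ± 0.69 against PS0 (limma adjusted p = 0.292), and 2.81 ± 0.60 against S0 and PH0 (adjusted p = 0.00132). At 2 h it was 1.45 ± 0.69 and 2.83 ± 0.60 (adjusted p = 0.334 and 0.0013).

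The water sets differed from each other in the chloroplast genes of shoots. By limma's moderated F test, 23 of 63 tested members differed among S0, PS0 and PH0, as did 25.5% of all genes, and edgeR called 27 and DESeq2 24 members. Of the 23, 22 had their highest mean in S0, and ATCG00350 had it in PH0. Over the 63 tested members the median log2 ratio of group means was 1.32 for S0 to PS0 and 1.19 for S0 to PH0, against 0.10 and 0.17 over all genes, and 48 of the 63 were highest in S0. The count depended on single S0 libraries and was 4 without S0 replicate 1 and 8 without S0 replicate 2. ATCG01020 had the smallest adjusted p, 6.82e-04 by the F test, with 582.7, 279.8 and 128.7 in S0, 59.9, 53.6 and 18.5 in PS0 and 11.1, 31.9 and 53.2 in PH0. All S0 libraries were above all others in water, and also above the 22.4 to 59.4 of the treated shoots. ATCG00490 (adjusted p = 0.00279) was at 966, 821.7 and 627.7 in S0 and at 88.8 to 384.8 in the other 6 water libraries, again without overlap. ATCG00660, the L20 code, had 13.9, 13.6 and 14.6 in S0 and at most 3.8 in the other water libraries (adjusted p = 0.0177). ATCG00740, in contrast, had its lowest mean in S0, at 807.7 ± 228.1 against 1330.1 ± 605.1 in PS0 and 1547.9 ± 605.7 in PH0 (SD, n = 3 each), and the 3 sets were not told apart (adjusted p = 0.240). ATCG00330 was not called either (0.903). Summed signal of the shoot markers was 118310.4, 149285.3 and 134978.2 in S0, 86881.9, 99507.1 and 132952.5 in PS0 and 189176.5, 172684.4 and 194146.5 in PH0, so that the marker signal was highest in PH0. Its part in these differences was not tested.

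**Figure D5:**
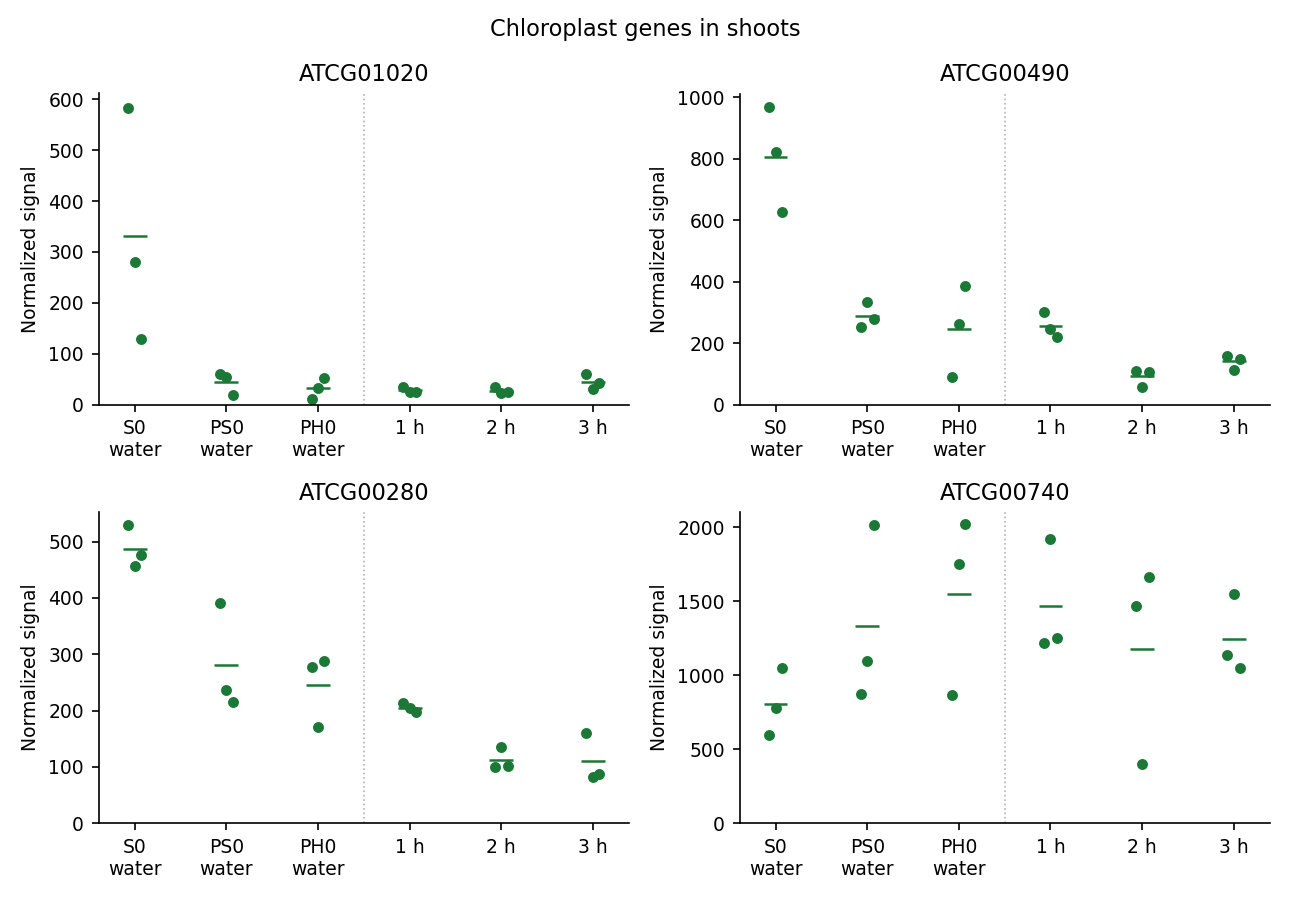
Normalized signal of 4 chloroplast genes in the 18 shoot libraries by set, with group means as bars. ATCG01020 and ATCG00490 are highest in the S0 water set, ATCG00280 falls to 82.7 to 160.4 at 2 and 3 h, and ATCG00740 overlaps the PS0 range of 874.4 to 2016.6 in every other set.

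In shoots no mitochondrial member differed among the water sets by limma (5 of 14 at an unadjusted p under 0.05, 1 in edgeR and 0 in DESeq2). In roots no member of either genome did (3 of 18 and 1 of 20 at an unadjusted p under 0.05), where 5.92% of all genes were called; edgeR called none and DESeq2 called 1 chloroplast member. With S0 and PH0 as control, 10, 25 and 18 of the 63 chloroplast members were lower at 1, 2 and 3 h and none was higher, where 19.2, 27.3 and 29% of all genes were called in either direction. This control holds the S0 shoots, the water set in which 48 of the 63 members were highest. The part of that set in these counts was not tested.

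Some members were high in 1 or a few libraries. ATCG00260 had 2613.6 in PH0 replicate 3 of the shoots, at most 13.6 in the other shoot libraries and 0 in all 18 root libraries. ATCG00920 had 278.1 in S0 replicate 3, 222 in PS0 replicate 2 and 197.5 in PH0 replicate 2, at most 30.9 in the other 6 shoot libraries in water and 0 to 21.3 in the treated ones, with the 3 highest values spread over the 3 water sets. These values were chosen after the data were seen.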

How the data were processed

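Roots and shoots of seedlings were profiled by MARS-seq in 36 libraries, 3 in each of 12 groups taken from the sample titles. The authors deposited 1 table of normalized signal: gene counts divided by a size factor per library and rounded, as the values show. Per the submitters' processing notes, STAR 2.4.2a, HTSeq, DESeq2, cutadapt and bcl2fastq were used, in roles that are not stated. For build, annotation, molecular identifiers, strand and filters, nothing is given in the sources used. No column was left out. Whole reads were recovered from the deposited signal as multiples of 1 step per library; 100% of the 586188 values were whole within 0.05, and 36 of 36 simulated libraries were recovered. Without strand, reads of overlapping organelle genes cannot be told apart.

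Genes were tested mainly by limma 3.58.1 on log2(signal + 1), a scale that understates changes of low genes, with the prior variance following the mean and with genes of 5 or more in 3 or more libraries of the tissue (either tissue for root against shoot, each tissue for the difference of responses). Tissue fits used 18 libraries and 6 means; fits over both used 36 and 12. edgeR 4.0.16 and DESeq2 1.42.0 on recovered reads, TMM or nuclear size factors, a pseudocount of 5, no filter, other controls, a replicate block, the compared groups alone and single libraries left out were alternatives. In a simulation of root libraries at 3 h against PS0, limma called 18% of genes changed 2-fold and 79% of those changed 4-fold. It also called 8 unchanged genes, with 11305 genes tested. Counts were drawn with a single fixed dispersion, and only genes with a mean of 5 or more were changed. The spread of the members was not modelled, so these rates may not hold for them. Shares of reads were compared with exact two-sided permutation tests, adjusted over 14 tests. Root and shoot libraries were treated as independent in these tests and in limma. p-values measure the spread between pools of seedlings.

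The members and gene lists were chosen with earlier results of these data known. Named members are the most abundant and, per comparison, called members whose groups did not overlap and whose higher group averaged at least 20, limited to 2 in each direction where codes carry no name; members that carry a name, and low members that make up a count of 5 or fewer, were added after their values were seen. Functional classes by symbol could not be formed, since the reference (TAIR10.1) does not pair the codes with symbols.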

Additional observations from a re-analysis of the deposited data

How the results depend on the processing

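Of 330 alternative values of the counts and shares, single libraries left out aside, 264 stayed within 1.5 times the count or within 1 SD of the share, 65 moved further and 1 changed sign; the cause was not tested. The contrast of roots with shoots kept its direction, with 51 to 60 chloroplast and 14 to 17 mitochondrial members called when single libraries were left out. With S0 and PH0 as control, the called members of roots were 3, 1 and 5 (chloroplast) and 2, 0 and 2 (mitochondrial) at 1, 2 and 3 h, those of shoots were 10, 25 and 18, and 1, 5 and 3, and the differences of response at 2 h and 3 h were 3 and 1 (mitochondrial). With all 3 water sets they were 3, 2 and 4, and 2, 0 and 2 in roots, 5, 24 and 13, and 0, 5 and 4 in shoots, and 2 and 1 for the response. Of all genes, S0 and PH0 as control gave 20.7, 15.3 and 24.1% called in roots, 19.2, 27.3 and 29% in shoots. For the response at 2 h and 3 h they gave 11.6 and 12.5%. All 3 water sets gave 16.3, 11.5 and 21.2% in roots, 10, 22.9 and 25% in shoots, and 8.67 and 10.1% for the response. With the compared groups alone, 1 mitochondrial member was called in roots at 2 h; in shoots 4 and 6 chloroplast members were called at 2 h and 3 h, 0 and 2 mitochondrial ones, and 7 and 1 between 3 h and 1 h; among water sets they were 5 and 2 in roots and 9 (chloroplast) in shoots. DESeq2 called 1 mitochondrial member in roots at 1 h and 1 at 2 h, 1 chloroplast member among root water sets, 6 chloroplast and 3 mitochondrial members in shoots at 3 h and 1 mitochondrial member between 3 h and 1 h. edgeR called 1 mitochondrial member in roots at 2 h, 0 in shoots at 2 h, 5 chloroplast and 3 mitochondrial members in shoots at 3 h and 1 mitochondrial member among shoot water sets. A pseudocount of 5 gave 1 and 1 mitochondrial members in roots at 1 h and 2 h, 3 in shoots at 3 h, and 2 chloroplast members among root and 1 mitochondrial among shoot water sets. Without a filter, 2 chloroplast members were called in roots at 3 h, 2 among root water sets and 1 mitochondrial member in shoots at 2 h. TMM and nuclear size factors each left 1 mitochondrial member in shoots at 2 h, and TMM gave 1 among shoot water sets. Shares of all genes called are given for the main fits and the other water controls only. Member counts of the remaining alternatives, here and below, can therefore not be set against such a share.

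Without libraries under 600 kiloreads, chosen after seeing the data, the counts were 1 chloroplast member among root water sets, 8 in shoots at 3 h and 5 between 3 h and 1 h, and 1, 4 and 2 mitochondrial members in shoots at 2 h, 3 h and between 3 h and 1 h; the mitochondrial share of shoots at 1 h then differed from PS0 by 9.98e-04 percentage points, against -0.0304. Leaving out single libraries gave 0 to 2 and 0 to 3 chloroplast members in roots at 1 h and 3 h, 0 to 1 and 0 to 1 mitochondrial ones, 3 to 12 and 1 to 5 chloroplast and 0 to 3 and 0 to 3 mitochondrial members in shoots at 2 h and 3 h, 0 to 1 chloroplast members between 3 h and 1 h in shoots, 4 to 28 chloroplast and 0 to 4 mitochondrial members among shoot water sets and 0 to 1 mitochondrial difference of response at 2 h. The share differences that changed sign ranged from -0.0723 to 0.0743 points (chloroplast, shoots at 1 h, 0.0225 and 0.0259 in the other fits above 0), from -1.79 to 0.526 (mitochondrial, roots at 2 h, with 0.142) and from -0.084 to 9.98e-04 (mitochondrial, shoots at 1 h).

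Deviations of same-numbered libraries from their group means were correlated within each tissue. The mean correlation was 0.0408 for roots (-0.4715 to 0.5096, with 15 of 45 pairs over 0.1). For shoots it was 8e-04 (-0.2224 to 0.4945, with 7 of 45 pairs over 0.1). Libraries of unlike number, and roots with shoots, were not compared in this way. Whether the numbers pair the libraries is therefore not settled. With the replicate number as a block, 1 mitochondrial member was called in shoots at 2 h and 2 at 3 h, 7 chloroplast members at 2 h, 24 among shoot water sets, and 60 and 15 members between tissues. Root libraries held 30 to 2409 chloroplast reads each, which limits the precision of their chloroplast values.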
